A study of Mus musculus with 473 samples.

Results

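The axon guidance ligands and receptors described here are the netrins, Slits, semaphorins and ephrins with their receptors, chosen by gene symbol alone: protein-coding features named Ntn, Dcc, Unc5, Slit, Robo, Sema, Nrp, Plxn, Efn or Eph. The choice gave 68 of the 28952 features in the deposited table, 34 of them ligands and 34 receptors. Secreted cues of these families attract or repel the growth cone of an extending axon. Membrane-bound ephrins and semaphorins act on contact between cells, and the receptors turn the cue into changes of the actin cytoskeleton. In the ventral midbrain, netrin, Slit, semaphorin and ephrin signals are known to guide dopaminergic axons to the striatum and cortex, and in the olfactory bulb semaphorins, neuropilins and ephrins help to sort sensory axons.

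Single cells were sorted for EGFP from Th:EGFP mice (Tg(Th-EGFP)DJ76Gsat/Mmnc), which carry a bacterial artificial chromosome with EGFP under regulatory sequences of the tyrosine hydroxylase gene, on a Swiss Webster background. The transgene reports its promoter and not the Th protein, and matings were between hemizygous males and wild-type females, so every group shares the transgene. The groups were forebrain (FB, labelled hypothalamus) and midbrain (MB) of embryonic day 15.5 (E15.5), and FB, MB and whole olfactory bulb (OB) of postnatal day 7 (P7). Tissue of 4 embryos or 5 pups was pooled per region, so each group is 1 pool, cells are not replicates, and the differences below carry no test, p-value or standard error. An SD is the spread over cells.

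Of the 473 cells, 396 passed the authors' quality control. On 3 of the 5 library plates, the number of genes in each cell's label matched the column of the same name (correlations of 0.996, 0.999 and 0.999). On the 2 other plates, both of P7, the correlations were -0.0338 and -0.0519, and they became 0.999 and 0.999 once the columns of these plates were exchanged well by well. The values below rest on the 249 cells of matching plates: at E15.5, 84 of FB and 88 of MB, and at P7, 31 of FB, 30 of MB and 16 of OB. The 147 cells of the exchanged plates (50 of FB, 45 of MB and 52 of OB) are given beside the P7 values as a separate reading. No 2 of the cells used had identical columns.

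Values are FPKM, fragments per kilobase of a transcript after scaling for the size of the library, so levels can be set side by side between genes. A gene counts as found in a cell at FPKM of 1 or more. Shares carry exact (Clopper-Pearson) 95% intervals, and where no cell had a gene the upper limit is instead set at 3 cells of the group. Both cover counting error only, since the depth of each cell is unknown. A difference between groups is log2((mean + 1)/(mean + 1)), which understates low genes. A member was compared where its mean was at least 1 FPKM in either group, and it is called higher or lower from 2-fold. Against a group where every cell is listed at 0, no fold is given. A member compared with such a group is always called, because of the minimum and the added 1.

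The cells were neurons by their transcripts, and Th was scarce at E15.5. Snap25 was found in 93.8 to 100% of the cells of each group. Th was found in 32.1% of FB and 29.5% of MB cells at E15.5, and in all 16 OB, 96.7% of MB and 96.8% of FB cells at P7. The label of dopaminergic neuron was therefore met by Th in a minority of E15.5 cells. Slc6a3, the dopamine transporter, was found in 86.7% of the MB and 16.1% of the FB cells of P7. The summed FPKM per cell had medians of 972789 to 1054300 at E15.5 and 493126 to 545503 at P7, and 214296 to 243421 on the exchanged plates, so levels are not compared between plates or ages as they stand.

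Markers of other neuron types moved with the groups. The summed level of the GABAergic markers Gad1, Gad2 and Slc32a1 had medians of 915 FPKM in P7 OB, 226 in P7 FB and 0 in P7 MB (ranges 110 to 1923, 0 to 1132 and 0 to 3.42). In P7 MB, 1 of the 3 was found in any cell, and Slc32a1 was listed at 0. At E15.5 the medians were 368 in FB and 0 in MB. The neuroblast markers Dcx, Sox11, Sox4 and Igfbpl1, which mark young neurons, summed to medians of 646 in E15.5 FB and 358 in E15.5 MB, and to 12.7, 15.08 and 65.5 in FB, MB and OB of P7. All 4 were found in every group. Within P7 OB, the 5 cells of cluster P7.OB.1 had a neuroblast median of 494 FPKM and a dopaminergic one (Th, Ddc, Slc6a3 and Slc18a2) of 19.9, against 48.5 and 3598 in P7.OB.2. The summed markers of astrocytes, microglia, endothelial cells and pericytes had medians below 0.1 FPKM in every group, and those of the oligodendrocyte lineage and radial glia medians of at most 11.4 and 3.38. The part of these cell types in the regional and age differences below was not tested.

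Nearly all families were represented in every group, with a shorter list in the olfactory bulb, where the fewest cells were used. At E15.5, at least 1 cell had 62 of the 68 members in FB and 62 in MB, and at P7 57 in FB, 55 in MB and 41 in OB. In at least 50% of cells there were 22, 27, 11, 26 and 4 members, in the same order. The 4 of P7 OB were Efnb3, Efna3, Sema3e and Robo1. The OB list rests on 16 cells, against 31 (FB) and 30 (MB) at that age. The number of members found in at least 1 cell grows with the number of cells. The whole table was shorter in OB too, with 11750 features found, against 14732 (FB) and 14783 (MB). In at least 50% of cells there were 2948 features, against 4601 and 6040. How much of the shorter OB list belongs to these differences was not tested. No cell had Epha2, Ntn5, Plxnb3, Robo4 or Sema3g. Efnb3, a transmembrane ephrin that binds EphB receptors, was the most widely found member, in 96.4% and 96.6% of the FB and MB cells at E15.5, and in 100%, 100% and 81.2% of the FB, MB and OB cells at P7. Its level averaged 92.7 ± 64.2, 76.6 ± 51.1 and 99.4 ± 80.2 FPKM in P7 FB, MB and OB, which overlapped throughout.

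**Figure D1:**
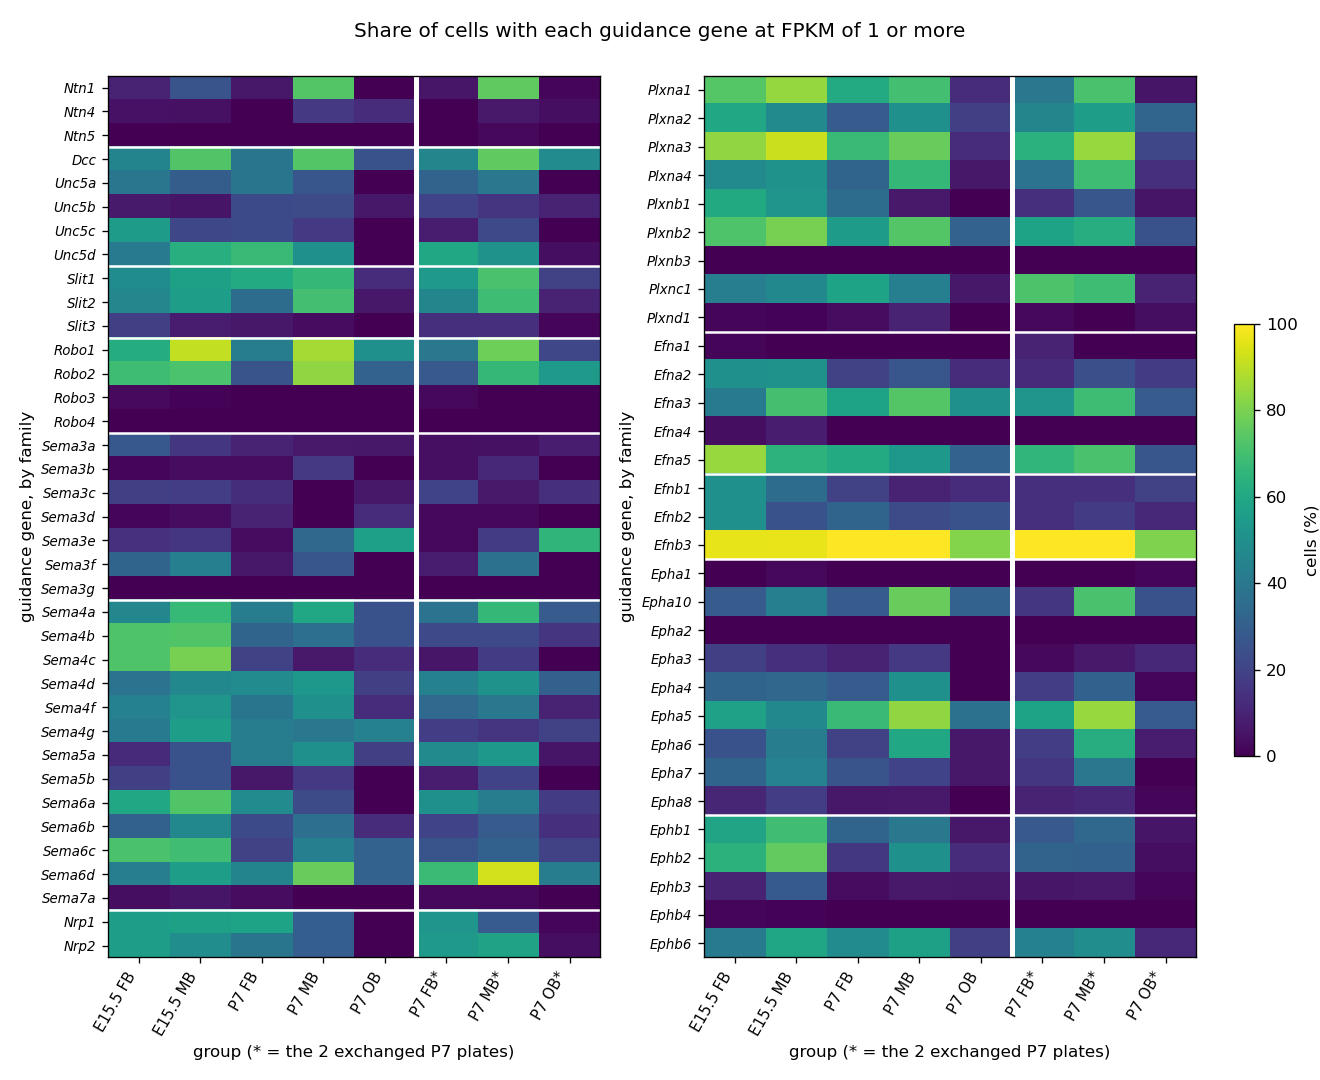
Share of cells (colour, percent with FPKM of 1 or more) for each of the 68 members (rows, by family) in the 5 groups and, marked with an asterisk, in the 3 P7 groups of the exchanged plates. Efnb3 is found in 81.2 to 100% of the cells of every group on the plates used. In the P7 OB column of the plate used, 41 of the 68 members are above 0%.

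At E15.5 a cell held a median of 24.5 members in FB (7 to 39) and 27 in MB (14 to 40). At P7 it held 17 in FB (7 to 32), 24.5 in MB (14 to 31) and 8.5 in OB (3 to 13). The exchanged plates gave 16, 25 and 8 for FB, MB and OB. The number of all genes found moved the same way, with P7 medians of 5411 for FB, 6333.5 for MB and 3584 for OB. Per 1000 genes found, the medians were 4.08, 4.08, 3.40, 3.75 and 2.34 members. P7 OB cells thus had fewer guidance genes relative to their own gene number too. Its cells had a median of 6 ligands and 3 receptors, against 12 and 13 in P7 MB. How much of this difference belongs to the smaller number of genes per cell was not tested beyond these ratios.

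**Figure D2:**
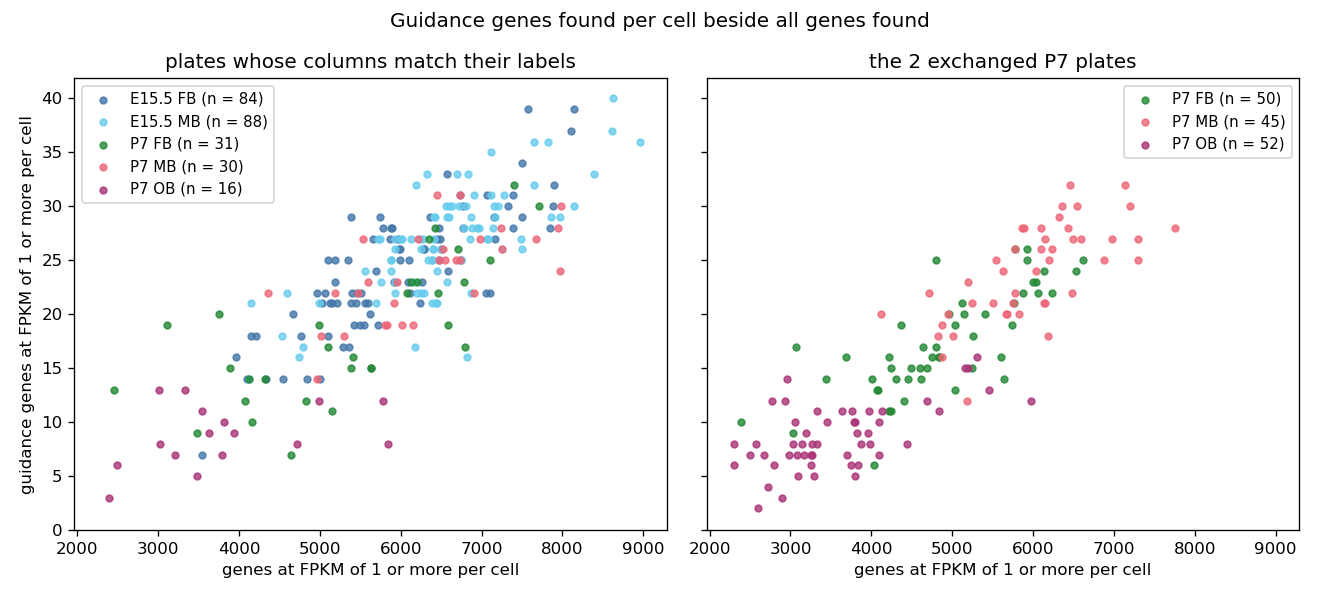
Guidance genes found per cell (vertical axis) against all genes found per cell (horizontal axis), 1 point per cell. The plates used and the exchanged P7 plates are in separate panels. On the plates used, the P7 OB points lie at 3 to 13 members, below all of the P7 MB points at 14 to 31. On the exchanged plates the P7 OB points lie at 2 to 16 and the P7 MB points at 12 to 32, which overlap.

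The promoters of 2 members with opposite patterns at P7 are printed to show the start-site sequence of each: Slit2, low in OB, and Sema3e, high there. Both run from 250 bases before to 50 after the start in RefSeq, build GRCm38.p6, plus strand. Slit2 is chr5:47982905-47983204, with 30 CpG, and the capitals mark TATAAA, whose first base is at -28 from the start. Sema3e is chr5:14025026-14025325, with 11 CpG, and the capitals mark E-boxes (CANNTG) at -84 and 24.
Slit2: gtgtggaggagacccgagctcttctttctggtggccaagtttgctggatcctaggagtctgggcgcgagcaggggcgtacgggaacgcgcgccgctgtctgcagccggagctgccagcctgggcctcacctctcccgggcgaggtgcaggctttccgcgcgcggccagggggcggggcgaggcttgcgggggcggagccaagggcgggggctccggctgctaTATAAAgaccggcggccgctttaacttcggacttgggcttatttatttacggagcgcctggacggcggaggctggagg
Sema3e: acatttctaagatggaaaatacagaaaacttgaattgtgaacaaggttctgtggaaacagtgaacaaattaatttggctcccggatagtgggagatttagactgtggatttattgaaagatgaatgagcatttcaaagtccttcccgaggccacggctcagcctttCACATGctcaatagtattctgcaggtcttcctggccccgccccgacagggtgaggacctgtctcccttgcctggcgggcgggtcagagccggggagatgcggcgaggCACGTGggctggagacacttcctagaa
Both strands were searched, and a match is a description of letters only. TATAAA occurs in 13.6% and CANNTG in 72.3% of the 32851 RefSeq promoters of this length. RefSeq promoters matched 58 of the 68 members, and their median CpG number was 19.5, against 7 for all promoters.

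The netrins were represented mainly by Ntn1 (chromosome 11, 68209364 to 68400823, minus strand, GRCm38), a secreted cue that attracts through Dcc and repels through Unc5 receptors. At E15.5 its level per cell ran from 0 through a median of 0 to 114 FPKM in FB, and from 0 through 0 to 219 in MB. At P7 it ran from 0 through 0 to 26.9 in FB and from 0 through 22.4 to 119 in MB, and all 16 OB cells were listed at 0. P7 MB was thus the only group in which the typical cell had the transcript, while the upper end of the other groups overlapped it. Ntn1 was found in 22 of 30 P7 MB cells (73.3%, 95% interval 54.1 to 87.7%) and 2 of 31 P7 FB cells (6.45%, 0.791 to 21.4%). A count of 0 in 16 OB cells allows a share of up to 18.8%, which is 3 of the 16. The exchanged plates gave 75.6%, 6% and 1.92% for MB, FB and OB.

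The log2 fold of Ntn1 in P7 MB over FB was 3.96 on the plate used and 3.60 and 2.81 on the exchanged plates. In P7 FB, 1 cell at 26.9 FPKM held 83.3% of the Ntn1 total. That cell, singled out after its values were seen, was also the FB cell with the highest Slc6a3 (3513 FPKM), and without it the fold was 4.75. At E15.5 the fold of MB over FB was 1.88, and 2.52 and 1.47 on the 2 plates, with the transcript in 26.1% and 9.52% of cells.

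Dcc, the receptor through which netrin attracts, was found in 72.7% of E15.5 MB, 45.2% of E15.5 FB, 73.3% of P7 MB, 38.7% of P7 FB and 25% of P7 OB cells. At E15.5 its mean was 77.5 ± 136 FPKM in MB and 38.1 ± 72.5 in FB, a log2 fold of 1.01 (1.09 and 0.92 on the 2 plates). At P7 the means of 18.9 ± 19.7 in MB, 11.4 ± 18.7 in FB and 17 ± 32.1 in OB lay within the spread over cells, with less than 2-fold between any pair. On the exchanged plates, 75.6%, 46% and 48.1% of MB, FB and OB cells had Dcc. Ntn1 and Dcc were found in the same cell in 60% of P7 MB cells (40.6 to 77.3%), 19.3% of E15.5 MB and 3.23% of P7 FB cells. Of the 22 P7 MB cells with Ntn1, 81.8% also had Dcc.

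Unc5c, a receptor that mediates repulsion by netrin, differed the other way at E15.5. It averaged 46.2 ± 94.3 FPKM in FB and 6.51 ± 20 in MB, and 54.8% and 21.6% of cells had it, a log2 fold of MB over FB of -2.65 (-3.39 and -1.75 by plate). In P7 FB the mean of 48.1 came for 95.2% from 1 cell at 1419 FPKM. Unc5d, another member of this receptor family, was found in 67.7% of P7 FB and 50% of P7 MB cells, and every P7 OB cell was listed at 0. On the exchanged plates it was found in 60%, 51.1% and 3.85%. Unc5a was likewise found in 38.7% of P7 FB and 26.7% of P7 MB cells and was listed at 0 in P7 OB.

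**Figure D3:**
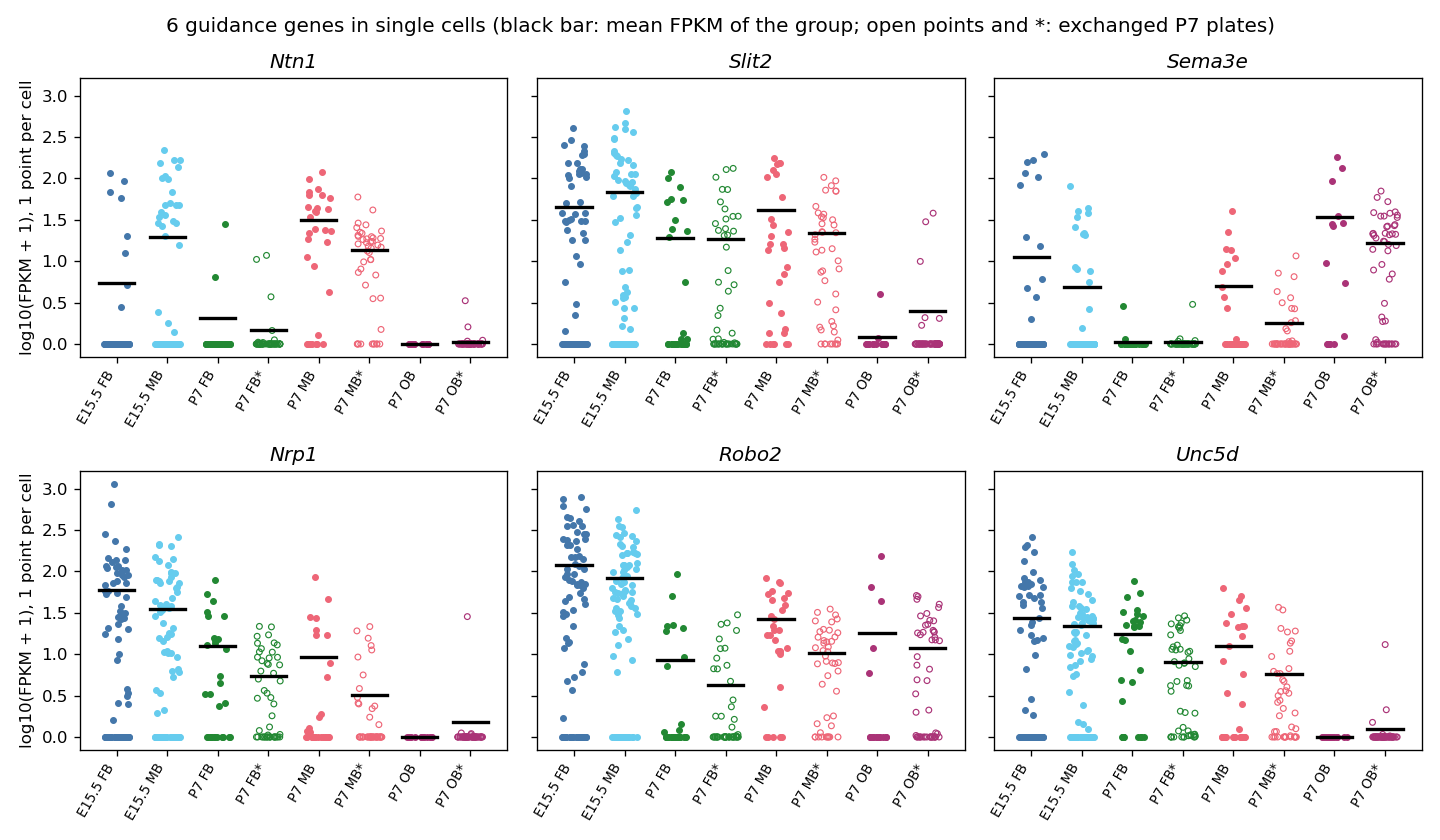
FPKM per cell on a log10(FPKM + 1) axis for Ntn1, Slit2, Sema3e, Nrp1, Robo2 and Unc5d in the 5 groups, with filled points for the plates used, open points for the exchanged P7 plates and a black bar at the mean FPKM of the cells used. Ntn1 is listed at 0 in the 16 OB cells and has a median of 22.4 in P7 MB, while Sema3e has a median of 6.41 in P7 OB.

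Slit2 (chromosome 5, 47983138 to 48307733, plus strand), a secreted repellent that binds Robo receptors, had uneven levels across the P7 regions. Per cell, P7 MB ran from 0 through a median of 13 to 176 FPKM, P7 FB from 0 through 0 to 118 and P7 OB from 0 through 0 to 3.05. The OB cells lay at or near 0, whereas the MB and FB ranges overlapped. Slit2 was found in 70% of P7 MB (50.6 to 85.3%), 35.5% of P7 FB (19.2 to 54.6%) and 6.25% of P7 OB cells (0.158 to 30.2%), and in 68.9%, 46% and 9.62% on the exchanged plates. The log2 fold of MB over OB was 5.10 on the plate used and 2.55 and 4.03 on the others. That of FB over OB was 3.98, 1.85 and 4.20.

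Between P7 MB and FB, the log2 fold of Slit2 was 1.12 on the plate used and 0.70 and -0.16 on the exchanged plates, so its direction was not the same on all 3. At E15.5 Slit2 averaged 66.8 ± 120 FPKM in MB and 44 ± 78.9 in FB, under 2-fold apart. Slit1, a related repellent, was found in 12.5% of OB, 61.3% of FB and 66.7% of MB cells at P7, with means of 12.8, 15.5 and 15.4 FPKM. The OB mean rests on 2 cells.

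The Robo receptors bind Slits at the growth cone. Robo2 per cell ran from 0 through 17.3 to 81.2 FPKM in P7 MB, 0 through 0 to 91.5 in P7 FB and 0 through 0 to 153 in P7 OB. The top FB and OB cells exceeded the MB cells, and the difference lay in the share of cells: 83.3% in MB, 25.8% in FB and 31.2% in OB. Its log2 fold of MB over FB was 1.62, 1.33 and 1.20 on the 3 plates. FB was below OB on each of them (-1.08, -1.41 and -1.48), and OB cells with Robo2 reached 53.8% on the exchanged plates. Robo1 was found in 86.7% of P7 MB, 41.9% of P7 FB and 50% of P7 OB cells, and its log2 fold of FB over OB of -1.62 turned to 0.65 on the exchanged plates. At E15.5, 90.9% of MB and 61.9% of FB cells had Robo1, under 2-fold apart in mean.

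Slit2 and each of its receptors Robo1 and Robo2 were both found in 18 of 30 P7 MB cells. Slit2 and Robo1 were both found in 60% of P7 MB (40.6 to 77.3%), 51.1% of E15.5 MB, 25% of E15.5 FB, 22.6% of P7 FB and 6.25% of P7 OB cells. On the exchanged plates this was 53.3%, 18% and 1.92% for MB, FB and OB. Slit2 and Robo2 were both found in 60% of P7 MB, 12.9% of P7 FB and 0 of 16 P7 OB cells. Whether these pairs were more frequent than the separate shares give was not tested, and in P7 MB those were 70% for Slit2, 86.7% for Robo1 and 83.3% for Robo2. Dcc and Robo1, receptors for an attractant and a repellent, were both in 66.7% of P7 MB, 65.9% of E15.5 MB and 12.9% of P7 FB cells.

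Among the secreted semaphorins, Sema3e (chromosome 5, 14025276 to 14256689, plus strand), which signals through plexin-D1, had its highest P7 level in the olfactory bulb. Per cell, P7 OB ran from 0 through a median of 6.41 to 182 FPKM, P7 MB from 0 through 0 to 39.7 and P7 FB from 0 through 0 to 1.89. OB reached well above both other groups, and 1 FB cell of 31 had the transcript. The shares of cells were 56.2% in OB (29.9 to 80.2%), 33.3% in MB (17.3 to 52.8%) and 3.23% in FB (0.0816 to 16.7%), and 65.4%, 17.8% and 2% on the exchanged plates. The log2 fold of MB over OB was -2.77, -2.87 and -3.52 on the 3 plates, and that of FB over OB -5.01, -3.98 and -3.99. At E15.5 the means of 10.2 in FB and 3.92 FPKM in MB came from 14.3% and 15.9% of cells.

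Plxnd1, the plexin-D1 gene, was rarely found: in 10% of P7 MB cells, 3.23% of P7 FB cells and no P7 OB cell, where a count of 0 allows up to 18.8%. Sema3e and Plxnd1 were found together in 2 of 30 P7 MB cells and in none of the cells of the 4 other groups. On the exchanged plates 2 of 52 OB cells held both. Sema3a, the secreted ligand of the Nrp1 and plexin-A receptor complex, averaged 57.9 FPKM in E15.5 FB and 17.8 in E15.5 MB, a log2 fold of -1.65 (-1.23 and -1.94 by plate).

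The neuropilins, the binding subunits for class 3 semaphorins, were listed at 0 in the olfactory bulb cells of the plate used. Nrp1 per cell ran from 0 through 2.28 to 78.1 FPKM in P7 FB and 0 through 0 to 83.9 in P7 MB, and the 16 OB cells were listed at 0. Nrp2 ran from 0 through 0 to 90.01 in P7 FB and 0 through 0 to 100.2 in P7 MB, and OB was again listed at 0. Nrp1 was found in 58.1% of FB and 30% of MB cells, and Nrp2 in 38.7% and 30%. The exchanged plates had Nrp1 in 52%, 28.9% and 1.92% and Nrp2 in 54%, 57.8% and 3.85% of FB, MB and OB cells, so few OB cells had either there too. At E15.5 Nrp2 was 69.7 ± 133 FPKM in FB and 34.7 ± 71.6 in MB, just under 2-fold apart.

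The plexins, the signalling subunits, followed in part. Plxna1 was found at P7 in 12.5% of OB, 61.3% of FB and 70% of MB cells, and its log2 folds over OB were 2.35 for FB and 2.40 for MB. Plxnc1, the plexin that binds Sema7a, was found in 6.25%, 58.1% and 43.3% of them, with log2 folds over OB of 3.04 and 2.96. Plxna4 was found in 6.25%, 32.3% and 66.7%, and Plxna2 in 18.8%, 29% and 50%. On the exchanged plates, in the order OB, FB and MB, Plxna1 was found in 5.77%, 40% and 71.1%, Plxnc1 in 9.62%, 72% and 68.9%, Plxna4 in 13.5%, 38% and 68.9% and Plxna2 in 32.7%, 46% and 55.6%. On the first of them, Plxna2 had log2 folds over OB of -0.42 for FB and -0.44 for MB, against 0.66 and 0.67 on the plate used. The fold of Plxna4 for FB over OB was 2.16 on the plate used and 0.33 and 1.40 on the others. At E15.5 Plxna2 was lower in MB, at 14.7 against 32.2 FPKM in FB (log2 fold -1.08). Nrp2 with Plxna3, the receptor pair for Sema3f, was found in 45.2% of FB and 45.5% of MB cells at E15.5, against 0 of 16 OB, 16.7% of MB and 32.3% of FB cells at P7. On the exchanged plates this pair was found in 1.92% of OB, 51.1% of MB and 42% of FB cells. The order of MB and FB was thus reversed there, and the MB share was not below that of E15.5.

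Membrane semaphorins were found in all groups. Sema6a, a transmembrane semaphorin that binds class A plexins, was found in 48.4% of P7 FB and 23.3% of P7 MB cells and was listed at 0 in the 16 P7 OB cells, but in 17.3% of the 52 OB cells on the exchanged plates. Sema6d, which binds plexin-A1, was found in 76.7% of P7 MB and 45.2% of P7 FB cells, with log2 folds of 1.59, 1.09 and 0.39 by plate. Sema4b had a log2 fold of MB over FB of 1.86 on the plate used that reversed to -0.82 on the exchanged plates together.

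Among ephrins and Eph receptors, several EphA receptors had a larger mean in the midbrain than in the forebrain at P7. Epha5, a receptor for GPI-anchored ephrin-A ligands, ran from 0 through 96.5 to 201 FPKM in P7 MB, 0 through 13.4 to 406 in P7 FB and 0 through 0 to 748 in P7 OB. The median was highest in MB, while in OB 1 cell at 748 held 50.2% of the total. It was found in 83.3% of MB, 67.7% of FB and 37.5% of OB cells, and in 84.4%, 58% and 28.8% on the exchanged plates. The log2 fold of FB over OB of -1.15 on the plate used became 0.31 on the exchanged plates. Epha10, a receptor with an inactive kinase domain, was 20.18 ± 24.2 FPKM in P7 MB and 5.15 ± 9.24 in P7 FB, with log2 folds of 1.78, 2.37 and 1.18 by plate. Epha6 had folds of 1.49, 2.48 and 0.34, and Epha4 folds of 1.12, 0.13 and 2.14.

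Efna5, a ligand of Epha5, was found at P7 in 31.2% of OB, 61.3% of FB and 53.3% of MB cells, with means of 23.5, 24.9 and 10.4 FPKM. In OB 5 of 16 cells had it. Efna5 and Epha5 were found together in 44% of FB and 29.5% of MB cells at E15.5, and in 38.7%, 36.7% and 6.25% of FB, MB and OB cells at P7. Ligand and receptor thus shared a cell in both regions at both ages, and in 1 cell of the olfactory bulb. Ephb3, an EphB receptor, had a log2 fold of 1.77 at E15.5, at 13.1 FPKM in MB and 3.13 in FB, and Efnb2, a transmembrane ligand, one of -1.86.

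Counted over all members, the P7 MB against FB comparison had 13 higher and 9 lower of 54 compared. Over all features of the table, 10.8% were called higher and 13.8% lower. The higher members included 4 of 6 EphA receptors (Epha4, Epha5, Epha6 and Epha10), Ntn1, Robo2 and Slit2. Of the 13, 10 had the same direction on all 3 P7 plates, and Ntn1, Robo2 and Epha10 were past 2-fold on each of them. Of the 9 lower, 4 kept direction on all 3, and only Sema3c, which is listed at 0 in P7 MB, was past 2-fold on each. The median log2 fold of the members was -0.02, against -0.08 for all features.

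Against OB, P7 MB had 23 members higher and 10 lower of 52, where 29.8% and 20.3% of all features were called. P7 FB had 21 higher and 10 lower of 54, where 31.1% and 18% of all features were called. OB is listed at 0 for 13 of the 23 and 12 of the 21, so those are counts without a fold. Their calls were fixed once they reached the minimum mean, and the all-feature shares include features called the same way. The members' median log2 fold was 0.61 for MB and 0.41 for FB, against 0.13 and 0.22 for all features. Without the members listed at 0 it was 0.07 and 0.16. The all-feature medians keep the features listed at 0, so they are no background for these last values. Without the highest cell of each gene, the members' medians were 1.86 and 1.09 and those of all features 0.72 and 0.68. MB and FB share the OB cells. The families with most members above OB were the neuropilins (2 of 2 in both), the EphA receptors (5 of 6 in MB, 4 of 6 in FB) and the plexins (6 of 8 in MB, 5 of 7 in FB). These counts include Nrp1, Nrp2, Epha3, Epha4, Plxnb1 and Plxnd1, for which OB is listed at 0. Epha3 (MB and FB) and Plxnd1 (MB) did not keep their direction on every P7 plate.

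On all 3 P7 plates, 12 of the 23 were past 2-fold above OB in MB: Ntn1, Slit2, Nrp2, Unc5a, Unc5d, Plxna1, Plxnc1, Epha4, Epha6, Epha7, Sema3f and Sema5b. In FB 7 of the 21 were: Slit2, Nrp1, Nrp2, Unc5a, Unc5d, Plxnc1 and Epha7. Among these, OB is listed at 0 on the plate used for Ntn1, Nrp1, Nrp2, Unc5a, Unc5d, Epha4, Sema3f and Sema5b. Sema5b was found in 16.7%, Epha7 in 20% and Unc5a and Sema3f in 26.7% of the MB cells of that plate. Direction was the same on all 3 plates for 21 of the 23 higher members in MB and 20 of the 21 in FB. Of the 10 lower members, 6 kept direction in MB, Efna2, Efna5, Ephb2 and Ephb3 being the exceptions. In FB only 3 of the 10 lower members did, and Efna2, Epha5, Ephb2, Ephb3, Robo1, Sema4b and Sema6c did not. Of the lower members, Sema3a, Sema3c, Sema3e and Efnb1 were past 2-fold below OB on all 3 in MB, and Sema3e and Robo2 in FB. On the plate used, Sema3e was found in 56.2% of OB cells, but Sema3a and Sema3c in 6.25% each and Efnb1 in 12.5%. On the first exchanged plate, Sema3a, Sema3c and Efnb1 were found in 7.41%, 11.1% and 25.9% of OB cells. The calls of Sema3a, Sema3c and Efnb1 thus rest on few OB cells. Among cells with 2500 to 4500 genes, a range set after the values were seen, 9 FB cells and 10 OB cells could be compared. Of 12 members looked at there, Nrp1, Nrp2 and Sema6a were each found in 4 of 9 against 0 of 10, Unc5d in 7 against 0, Plxnc1 in 5 against 1, Plxna1 in 4 against 2 and Sema3e in 0 against 5. The share of Slit2 was alike, with 1 of 9 against 1 of 10, and the FB over OB contrast in its share was not seen in this range. Dcc was found in 4 against 2 cells, Robo1 in 4 against 6, Robo2 in 1 against 3 and Epha5 in 3 against 5.

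**Figure D4:**
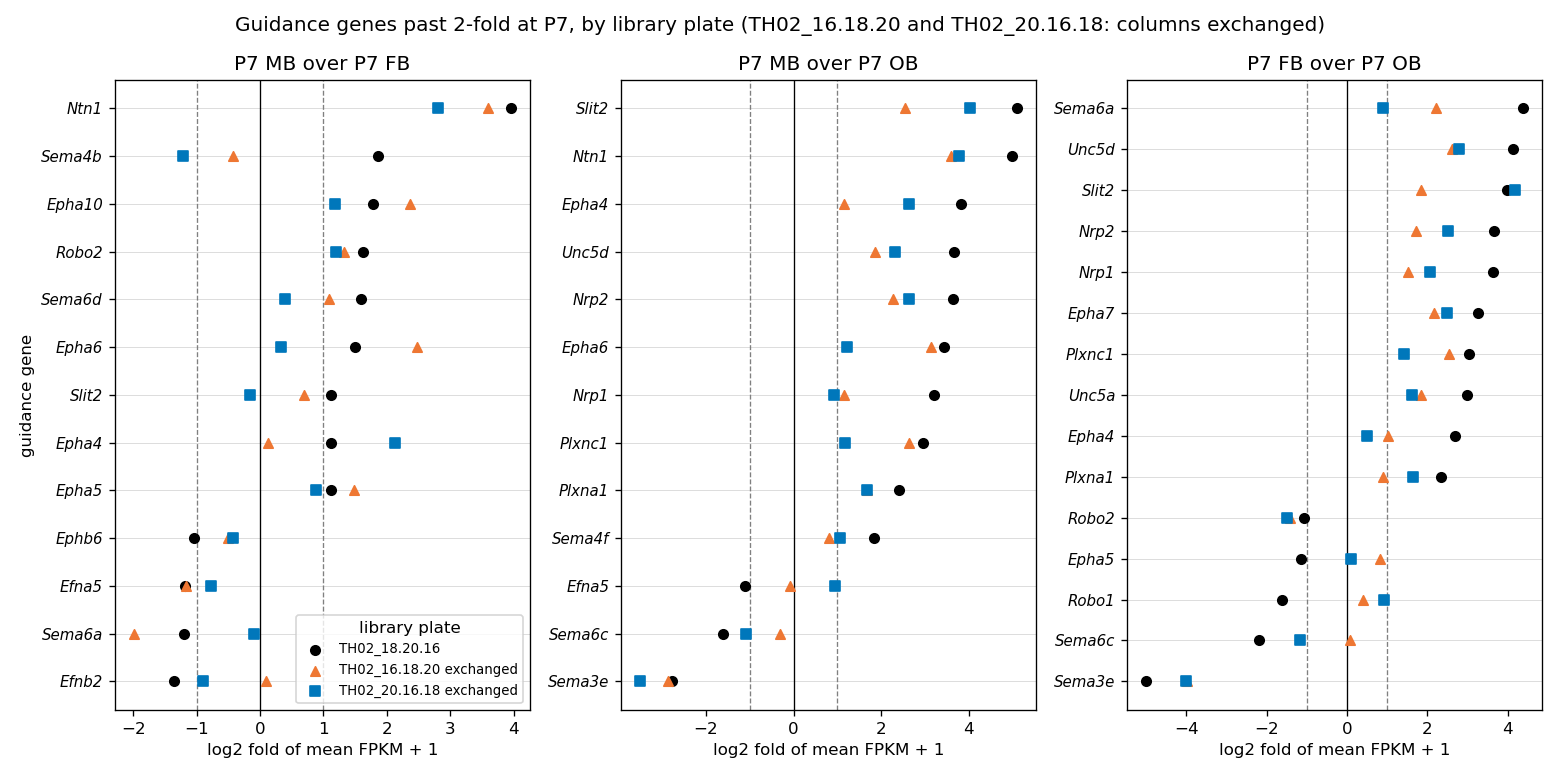
Log2((mean FPKM + 1)/(mean FPKM + 1)) of the named members (rows) on each of the 3 P7 plates (points) for MB over FB, MB over OB and FB over OB, with dashed lines at 2-fold. Ntn1 is right of the line on each plate for MB over FB (3.96, 3.60 and 2.81), and where OB is listed at 0 the plotted value depends on the pseudocount.

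At E15.5, fewer members were called between midbrain and forebrain. Of 58 members compared, 6 were higher in MB and 8 lower, with 8.46% and 9.41% of all features called, a share near the background. The 6 were Ntn1, Dcc, Ephb3, Efna3, Sema3b and Sema3d, and all had the same direction on both plates. Sema3b and Sema3d were each found in 4.65% and 2.22% of MB cells by plate, so these calls rest on few cells. The log2 folds of Sema3d were 1.48 and 0.059 by plate. The 8 lower were Unc5c, Efnb2, Sema3a, Sema3c, Sema3e, Plxna2, Slit3 and Robo3, of which 6 kept direction on both plates, Slit3 and Robo3 being the exceptions. Of the Eph receptors only Ephb3 was called, and no membrane semaphorin or neuropilin was.

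Between ages, nearly every guidance gene had a lower mean at P7, but so did most features of the table. In MB, 39 members were lower and 2 higher of 58 compared, with 58.4% and 5.23% of all features, and in FB 48 lower and 0 higher of 58, with 58.8% and 6.73%. The members' median log2 fold was -1.58 in MB and -1.68 in FB, against -1.18 and -1.20 for all features. With each cell rescaled to the same FPKM total these were -0.71 and -0.92 against -0.28 and -0.26. Age cannot be told apart from the longer dissociation and density gradient of P7 tissue or from sorting and plate.

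Read against the all-feature median of -1.18 and -1.20, Sema4c, a transmembrane semaphorin and ligand of plexin-B2, lay 3.59 below it in MB and 2.71 below it in FB on the log2 scale. Its share of cells was 79.5% at E15.5 and 6.67% at P7 in MB, and 72.6% and 19.4% in FB. In MB, Plxnb1 lay 2.97 below and Ephb1 2.13 below, and in FB Robo2 lay 2.58 below. On the other side, the 2 members called higher in P7 MB were Ntn4, a netrin, at 2.62 above the median and Sema3b, a secreted semaphorin, at 2.37 above, each found in 5 of 30 P7 MB cells. Plxnd1 lay 1.93 above, Ntn1 1.87 above and Epha5 1.49 above, but they were not called higher. A member listed at 0 at both ages, such as Robo4, also lay 1.18 above, because the median itself is negative. Plxnd1 averaged 1.12 FPKM in P7 MB and was found in 10% of its cells, so its value lies near this floor. Ntn1 was found in 26.1% of E15.5 MB and 73.3% of P7 MB cells, and Epha5 in 46.6% and 83.3%. Of the 88 E15.5 MB cells, 68 belonged to the labelled cluster E15.MB.1, with a median summed level of Th, Ddc, Slc6a3 and Slc18a2 of 1.97 FPKM. In the 20 cells of E15.MB.2, Ntn1 was already found in 90% and Epha5 in 75%, at means of 76 and 207.6 FPKM, so the age difference cannot be told apart from the makeup of the 2 pools.

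The labels also give each cell 1 of 13 clusters. These clusters were made from the expression of the same cells, so what follows is a description and no comparison was tested. In E15.5 MB, 20 cells of cluster E15.MB.2 held 92.1% of the Ntn1 total, with the transcript in 90% of them at 76 ± 62.9 FPKM, against 7.35% of the 68 cells of E15.MB.1 at 1.91 ± 8.08. Their summed level of Th, Ddc, Slc6a3 and Slc18a2 had a median of 2808 FPKM, against 1.97 in E15.MB.1. In E15.5 FB, Dcc was found in 63.3% of the 60 cells of E15.FB.1 and in 0 of the 24 of E15.FB.2, while Robo2 averaged 63.5 and 249.9 FPKM there and Sema3e 3.54 and 26.9.

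At P7, Ntn1 was in the clusters P7.MB.1 (14 of 15 cells) and P7.MB.4 (7 of 7), with 69.3% and 29.9% of the group's total, and in 1 of 4 cells of P7.MB.2 and 0 of 4 of P7.MB.3. The exchanged plates had it in 95.8%, 100%, 28.6% and 16.7% of those clusters' cells. Epha4 was found in 7 of 7 cells of P7.MB.4 and 34.8% of other P7 MB cells (100% and 16.22% on the exchanged plates). Unc5b was found in 3 of 4 cells of P7.MB.3 and 15.4% of the others (83.3% and 5.13%). In OB, Sema3e was in 4 of 5 cells of P7.OB.2, 5 of 6 of P7.OB.3 and 0 of 5 of P7.OB.1, and Dcc in 4 of 6 cells of P7.OB.3, with 99.8% of its total there. On the exchanged plates Dcc averaged 11.6 FPKM in P7.OB.3 and 10.3 in the other OB cells (77.8% and 41.9% of cells), so that concentration was not seen on them.

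**Figure D5:**
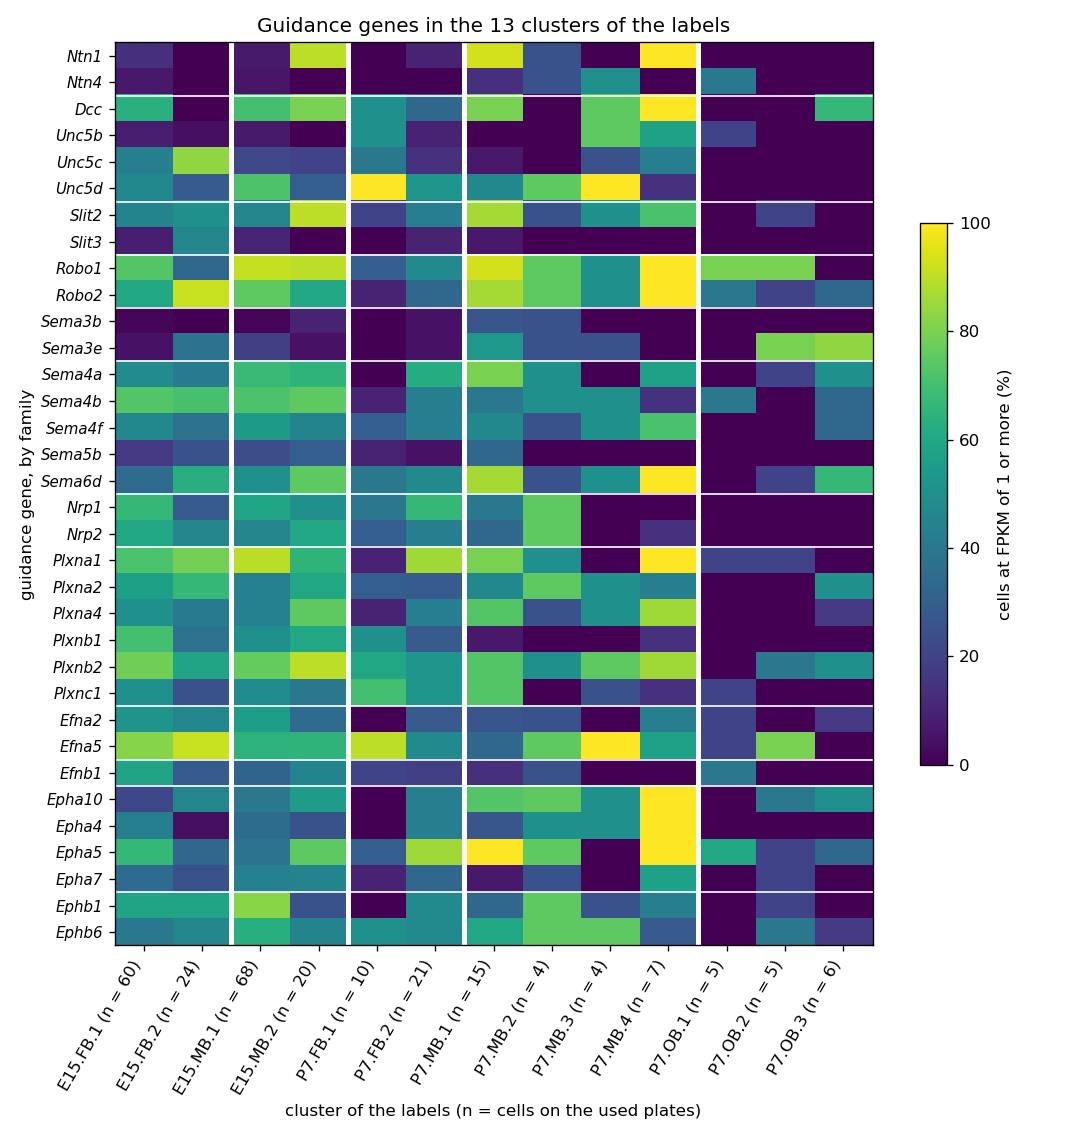
Share of cells (colour, percent with FPKM of 1 or more) for members (rows) in the 13 clusters given in the labels (columns), on the plates used. Ntn1 reaches 90% in E15.MB.2 and 100% in P7.MB.4, and Sema3e 80% in P7.OB.2 and 83.3% in P7.OB.3.

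Other guidance genes were counted in the same way, to be read against all features (10.8% higher and 13.8% lower for P7 MB over FB, 29.8% and 20.3% for MB over OB). From a list of 19 other cues and their receptors, 4 were higher and 1 lower of 16 compared in P7 MB against FB, and 7 higher and 6 lower of 19 in P7 MB against OB. Wnt5a, a secreted Wnt that also guides axons, averaged 15.7, 3.28 and 95.3 FPKM in MB, FB and OB of P7. Of 11 co-receptors and adhesion molecules, 5 were higher and none lower in P7 MB than OB (L1cam, Chl1, Cntn1, Lrig1 and Sdc3). Of 43 cytoplasmic effectors compared between P7 MB and OB, 8 were higher and 8 lower. None of these 3 lists was tested against all features.

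The protocol does not mark strand, and the exons of 14 members overlap an antisense gene, among them Unc5a, Unc5c, Plxna1, Plxna4, Plxnb1, Sema4c, Epha6, Epha10 and Ephb1. Reads of the partners cannot be told apart, and these values are uncertain to that extent. Doublets were not called, because single cells were sorted into wells.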

How the data were processed

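Smart-Seq2 libraries of poly(A) RNA were made from single sorted cells. The FPKM values were made by the authors with HISAT2 and Cuffnorm on mm10, per the submitters' processing notes; versions are not given in the sources used here. Features were paired with symbols through GENCODE M21 (28636 of 28952). Means, shares and log2 folds were computed in Python 3.11.15 with numpy 2.4.6, pandas 2.3.3 and scipy 1.17.1, with a pseudocount of 1 FPKM. The fold script was checked on simulated data with large changes in genes of high mean only. That check does not cover genes near the minimum mean or folds near 2-fold. Cells that passed the authors' quality control on plates with a label correlation of at least 0.9 were assigned to age and region from their labels; 77 cells failed that control. Named members were past 2-fold, had a mean of at least 5 FPKM in the higher group, were present in 25% or more of that group's cells, and kept direction without the highest cell, up to 10 per direction; Ntn1, Slit2, Sema3e, Dcc, Robo1, Robo2, Nrp1, Nrp2, Epha5, Efna5, Plxna2 and Plxna4 were always described. The members and gene lists were chosen with earlier results of these data known. Alternatives varied the pseudocount, minimum, scaling, averaging, highest cell and plate.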

Additional observations from a re-analysis of the deposited data

How the results depend on the processing

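Of 1039 values for 90 named folds under the alternatives, 881 kept their direction and their side of 2-fold, 141 kept the direction only and 17 reversed. No paired analysis was possible because the values come from no test and the replicate numbers only count cells; regions were compared within each plate as values instead. The cause of each change was not tested. With a pseudocount of 5 FPKM, the members called at E15.5 were 3 higher and 4 lower in MB, in P7 MB against FB 6 higher and 3 lower, in P7 MB against OB 4 lower, and in P7 MB against E15.5 MB 0 higher. With 0.1 FPKM, 3 were higher in P7 FB than E15.5 FB. With the mean of log2(FPKM + 1), 3 were lower in E15.5 MB, 1 in P7 MB against FB, 1 in P7 MB against OB, 1 in P7 FB against OB, 21 in P7 MB against E15.5 MB and 22 in P7 FB against E15.5 FB, and the median of all features moved to 0.60 for P7 MB over OB. With each cell rescaled to the same total, 5 were lower in P7 MB against FB, 4 higher and 22 lower in P7 MB against E15.5 MB, and 4 higher and 28 lower in P7 FB against E15.5 FB. Rescaling without AY036118 and Gm42418, added after seeing the data, gave 5 lower, then 5 higher and 20 lower, then 4 higher and 28 lower. Without the highest cell of each gene, that median moved to 0.72 for P7 MB over OB and 0.68 for P7 FB over OB, 5 were lower in P7 MB against FB, 4 in P7 MB against OB, 4 in P7 FB against OB, and 1 higher in P7 MB against E15.5 MB. With a single E15.5 plate, 1 or 2 were higher in P7 FB than E15.5 FB.

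On all 3 P7 plates, the calls were 8 higher in MB against FB, 5 lower in MB against OB, 5 lower in FB against OB and 0 higher in MB against E15.5 MB. On the 2 exchanged plates together they were 7 higher and 4 lower in MB against FB, 5 lower in MB against OB, 6 lower in FB against OB and 0 higher in MB against E15.5 MB. Each exchanged plate alone was added after seeing the data. The first gave 4 lower in MB against FB and 6 lower in MB against OB, and the second 7 higher in MB against FB and 6 lower in FB against OB. Members found per P7 MB cell had a median of 19 at FPKM of 5 or more.

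Reversed log2 folds of MB over FB were those of Sema4b (-0.82 on the exchanged plates, -0.43 and -1.22 on each), Efnb2 (0.087 on the first) and Slit2 (-0.16 on the second). For MB over OB, Efna5 became 0.34 with the mean of log2, 0.44 on the exchanged plates and 0.94 on the second. For FB over OB, Epha5 became 1.07 with the mean of log2, 0.31 on the exchanged plates and 0.83 and 0.11 on each, Robo1 became 0.65, 0.40 and 0.91, and Sema6c 0.081 on the first. Epha5 in P7 FB over E15.5 FB became 0.026 when rescaled without the 2 genes. The depth per cell is unknown, and 16 OB cells limit every OB share.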
